A study of Mus musculus with 2 samples.

Results

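The Mir29 family consists of 4 microRNA (miRNA) genes of the mouse, Mir29a, Mir29b-1, Mir29b-2 and Mir29c. The rule that picks them names their gene symbols and uses no measured value, and all 4 have a row among the 1973 genes of both count tables. MicroRNA sequencing had been done on mouse forebrain of strain B6NCrl at embryonic day 16.5, in 2 libraries labelled biological replicates 1 and 2. Each library came from total RNA of tissue pooled from healthy male and female embryos, and the pool of replicate 2 is labelled as 41 embryos. The libraries form a single group with no other tissue, age or treatment, so the data show the level of the family at 1 stage and how closely 2 pools matched. As whole tissue, the pools hold all cell types of the forebrain, and fewer cells of a type cannot be told apart from less RNA per cell.

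A miRNA gene is transcribed as a longer RNA, from which a hairpin precursor is cut and then trimmed to a mature strand from its 5' arm (5p) or 3' arm (3p). The mature strand pairs with messenger RNAs mainly through its seed, the bases from position 2 to position 8, and lowers their translation and stability. The Mir29 family is known for a low level in the embryonic brain and a strong rise after birth as neurons and glia mature. Its known targets include the DNA methyltransferase gene Dnmt3a, collagen genes and, in mature mouse neurons, pro-apoptotic genes of the BH3-only class.

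The 3p sequences are shown first because they define the family and decide which of its reads can be placed on a single gene. They come from RefSeq (GRCm38.p6), where all 4 genes have an entry, and capitals mark the seed.
mmu-miR-29a-3p: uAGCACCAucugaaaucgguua
mmu-miR-29b-3p: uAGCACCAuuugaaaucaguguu
mmu-miR-29c-3p: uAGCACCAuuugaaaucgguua
All 4 genes carry the same seed on the 3p arm, and no other gene among the mature entries of the table has it. The 29a and 29c forms differ by a single base, C10U, with 29a as the first sequence and positions counted from its 5' end. Against 29c, the 29b form carries G18A, U21G and A22U and 1 further base at its 3' end. The 29b form is made from both Mir29b-1 and Mir29b-2, with an identical sequence.

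The 5p strands, shown because they are the part in which the 29b precursors differ, did not share a seed with each other.
mmu-miR-29a-5p: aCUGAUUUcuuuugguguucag
mmu-miR-29b-1-5p: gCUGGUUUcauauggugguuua
mmu-miR-29b-2-5p: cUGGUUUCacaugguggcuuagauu
mmu-miR-29c-5p: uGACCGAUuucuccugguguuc
None of these 4 sequences occurs in any other of the 1005 precursors of the table.

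The genes lie as neighbouring pairs at 2 loci, each with 1 copy of the b form. Mir29a (ENSMUSG00000065610.1) lies at chr6:31062660-31062747 and Mir29b-1 (ENSMUSG00000065604.1) at chr6:31063023-31063093, both on the minus strand with 275 bases between them (GRCm38, GENCODE M21). By that annotation Mir29a overlaps no other gene, and only the first bases of Mir29b-1 overlap an exon of the long non-coding gene Gm27019 on the same strand. Mir29b-2 (ENSMUSG00000065412.2) lies at chr1:195037040-195037120 and Mir29c (ENSMUSG00000065548.1) at chr1:195037547-195037634, on the plus strand with 426 bases between them. Both lie within an exon of the non-coding gene A330023F24Rik and, on the opposite strand, within the untranslated region of the complement regulator gene Cd46. The precursors of the chromosome 6 locus are given whole, with capitals for both mature forms.
Mir29a: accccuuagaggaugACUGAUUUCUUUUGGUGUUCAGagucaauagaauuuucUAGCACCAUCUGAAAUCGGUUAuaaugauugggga
Mir29b-1: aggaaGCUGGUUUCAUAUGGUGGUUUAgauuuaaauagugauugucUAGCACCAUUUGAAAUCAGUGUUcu

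The precursors resembled each other most within the a and c forms and within the b forms, not within a locus. In a global alignment, Mir29a and Mir29c were identical at 78.0% of aligned columns and Mir29b-1 and Mir29b-2 at 73.2%. Mir29a and Mir29b-1, neighbours on chromosome 6, were identical at 60.4%, and Mir29b-2 and Mir29c at 63.2%. The longest run shared by the b precursors was 25 bases long and holds the whole 29b-3p form.
Mir29b-1 and Mir29b-2: UCUAGCACCAUUUGAAAUCAGUGUU
Mir29b-1 and Mir29c: UUGUCUAGCACCAUUUGAAAUC
The second line is the longest run of a b form with Mir29c, 22 bases, and it ends inside the 29c-3p form. Mir29a shared at most 14 bases with any other member.

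The deposited counts hold reads placed on 1 locus, while reads that map to several loci are totalled apart from the genes. A read that lies wholly within the 25 shared bases matches both b genes equally. Of the windows of 18 bases within 29b-3p, all 6 also occurred in the other b precursor, and of those within 29a-3p, 29c-3p and the 4 5p forms, none occurred in another miRNA precursor. Over whole precursors, windows of 18 bases found in no other miRNA precursor were 71 of 71 for Mir29a, 66 of 71 for Mir29c, 56 of 64 for Mir29b-2 and 43 of 54 for Mir29b-1. This search covered miRNA precursors. In GENCODE M21 transcripts of other loci, 2 windows of Mir29a, both outside its 3p form, also matched Lims1. The tables do not separate the arms, so a count does not show which strand of a precursor was read.

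**Figure D1:**
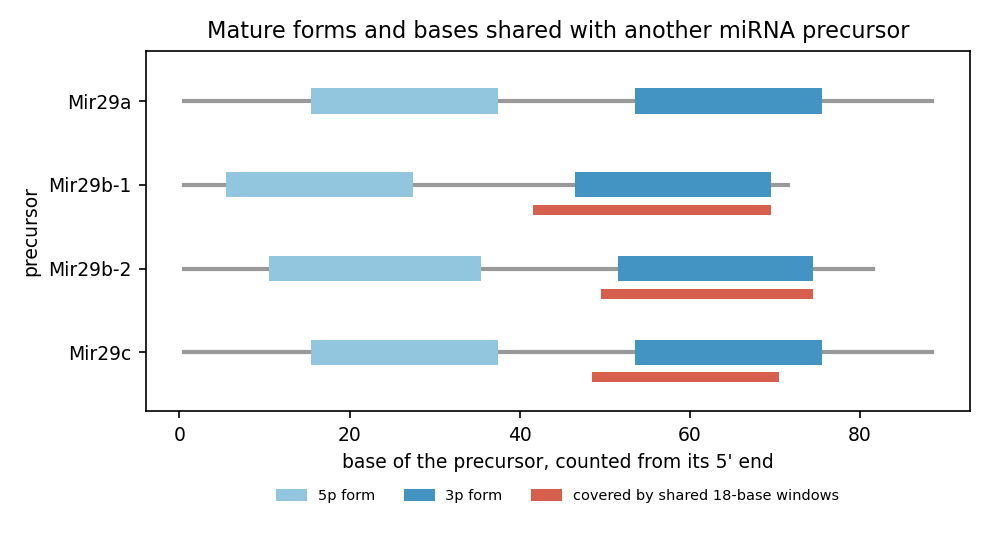
Each row is 1 precursor, drawn by base from its 5' end, with its 5p form in light blue and its 3p form in darker blue. The red bar marks bases covered by windows of 18 bases that also occur in another miRNA precursor: bases 42 to 69 of Mir29b-1, 50 to 74 of Mir29b-2 and 49 to 70 of Mir29c, and none of Mir29a.

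By uniquely placed reads, Mir29a was the most abundant member, Mir29c was next, and both b genes had few counts. Values are gene-strand counts and CPM, counts per 1000000 gene-strand counts of a library, and an interval is the exact 95% Poisson interval of a count, which covers counting error only. The libraries held 5060112 and 4158686 gene-strand counts, so a count of 0 would allow up to 0.593 CPM in replicate 1 and 0.721 CPM in replicate 2, taking 3 counts as the limit. None of the 4 genes was at 0 in either library.

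Mir29a, whose 3p form is distinct from every other precursor, had 1240 counts in replicate 1 and 1053 in replicate 2. This corresponds to 245 CPM (231.6 to 259.1) and 253.2 CPM (238.1 to 268.97), a mean of 249.1 ± 5.76 CPM (SD, n = 2). With these unscaled totals, the intervals of the libraries overlapped, and the SD was 2.31% of the mean.

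Mir29c had 646 counts in replicate 1 and 493 in replicate 2. Its level was 127.7 CPM (118.0 to 137.9) and 118.5 CPM (108.3 to 129.5), a mean of 123.1 ± 6.45 CPM (SD, n = 2). Both values lay below both values of Mir29a, and the intervals of these genes did not overlap in either library.

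Mir29b-2, the neighbour of Mir29c, had 21 counts in replicate 1 and 17 in replicate 2. Its level was 4.15 CPM (2.57 to 6.34) and 4.09 CPM (2.38 to 6.55), a mean of 4.12 ± 0.0440 CPM (SD, n = 2). The SD between the pools was far narrower than the counting interval of either library.

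Mir29b-1, the neighbour of Mir29a, had 6 counts in replicate 1 and 13 in replicate 2, the lowest counts of the family. Its level was 1.19 CPM (0.435 to 2.58) and 3.13 CPM (1.66 to 5.35), a mean of 2.16 ± 1.37 CPM (SD, n = 2). Both values lay below both values of Mir29b-2, but the counting intervals of the b genes overlapped in each library, so their order was not resolved at this depth.

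**Figure D2:**
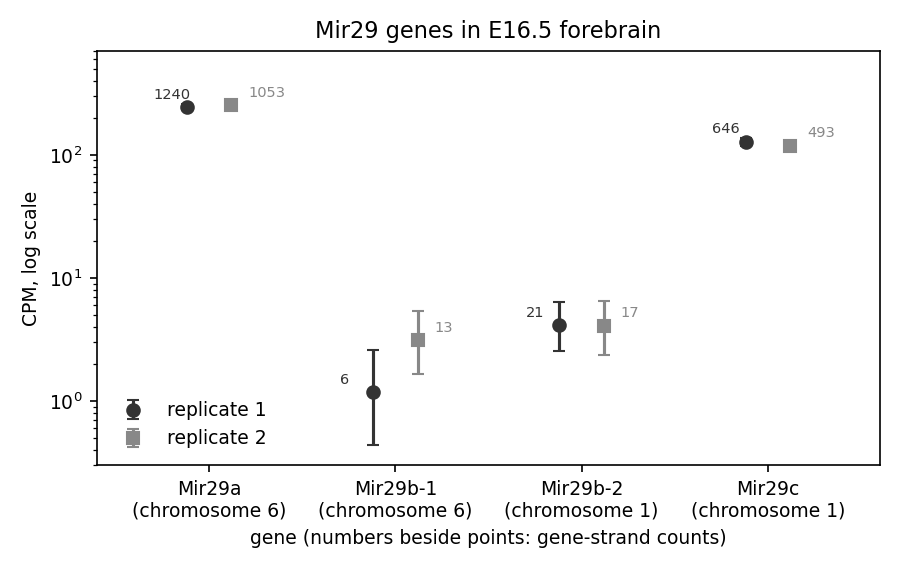
Points give the CPM of each Mir29 gene on a log scale, circles for replicate 1 and squares for replicate 2, bars the exact 95% Poisson intervals and numbers the counts. Mir29a and Mir29c lie between 118.5 and 253.2 CPM in both libraries, and both b genes between 1.19 and 4.15 CPM.

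Together the 4 genes had 1913 counts in replicate 1 and 1576 in replicate 2. That was 0.0378% (exact Clopper-Pearson 95% interval 0.0361% to 0.0395%) and 0.0379% (0.0360% to 0.0398%) of the gene-strand counts, or 378.5 ± 0.644 CPM (SD, n = 2). Relative to these unscaled totals, the sum of the uniquely placed reads of the family was thus nearly equal in both pools. Unscaled totals put every log2 ratio of replicate 1 over replicate 2 higher by 0.12 than the scaled totals tested below. The near-equality therefore rests on the scaling. The opposite-strand count was 0 for all 4 genes in both libraries, also at the chromosome 1 locus, where Cd46 is annotated on that strand.

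The same order held per length of gene, and whether counts grow with precursor length was not tested. In CPM per kilobase of annotated gene, Mir29a reached 2831 ± 65.5, Mir29c 1399 ± 73.3, Mir29b-2 50.9 ± 0.544 and Mir29b-1 30.4 ± 19.3 (SD, n = 2 each). Mir29a and Mir29c are equally long, 88 bases, and the level of Mir29a was 1.92-fold that of Mir29c in replicate 1 and 2.14-fold in replicate 2. Per base, Mir29a was 54.4-fold Mir29b-2 in replicate 1 and 57.0-fold in replicate 2, and 166.7-fold and 65.4-fold Mir29b-1. The last pair of folds rests on the 6 and 13 counts of Mir29b-1.

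Ratios within a library do not depend on how libraries are scaled, and they were alike in both pools within counting error. Mir29a held 65.7% (63.6% to 67.9%, exact Clopper-Pearson 95%) of the counts of Mir29a and Mir29c in replicate 1 and 68.1% (65.7% to 70.4%) in replicate 2. Reads of the chromosome 6 locus were 65.1% (62.9% to 67.3%) and 67.6% (65.3% to 69.9%) of the family. The intervals of the libraries overlapped for both shares.

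The b forms were a small part of the counts at each locus. Mir29b-1 held 0.482% (0.177% to 1.05%) of the counts of the chromosome 6 locus in replicate 1 and 1.22% (0.651% to 2.08%) in replicate 2. Mir29b-2 held 3.15% (1.96% to 4.77%) and 3.33% (1.95% to 5.28%) of those of the chromosome 1 locus. Both b genes together had 27 of 1913 family counts in replicate 1 and 30 of 1576 in replicate 2, or 1.66% ± 0.348 (SD, n = 2). Since 29b-3p reads match both b genes, these shares describe uniquely placed reads and give no level for mature miR-29b. How far reads placed at several loci lower the b counts was not tested, and such reads made up 40.5% of all reads in replicate 1 and 43.3% in replicate 2.

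Genes whose mature forms are partly shared with another gene were not uniformly low. Of the genes with RefSeq mature entries, 53 had some but not all mature forms shared with another gene, with a median of 41.1 CPM and an interquartile range of 2.16 to 430.6 CPM. Both b genes belong to these 53, so the lower quartile is the value of Mir29b-1 itself, with Mir29b-2 above it. How sharing affects the b counts cannot be read from this placing. Where all mature forms were shared, 25 of 34 genes had no count in either library, and where none was shared, 287 of 829 had none. These are descriptions of CPM per gene, with no correction for length and no test.

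In the ranking of all genes, Mir29a and Mir29c stood above the middle of the measured miRNAs. At least 5 counts in both libraries were present for 438 genes, with a median of 807 CPM per kilobase. Mir29a and Mir29c lay above that median, with 150 and 186 of these genes higher. Mir29b-2 and Mir29b-1 lay far below it, with 343 and 382 higher.

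**Figure D3:**
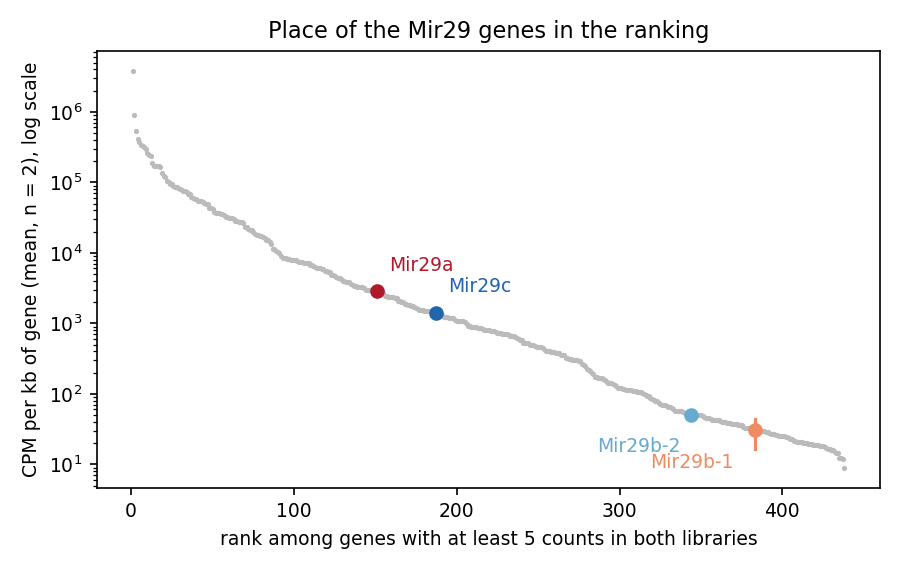
Grey points are the 438 genes that reached 5 counts in each library, ordered by mean CPM per kilobase of gene, on a log scale. Coloured points mark the Mir29 genes, with a line from one replicate to the other. The line of Mir29b-1 is the only one longer than its point.

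The genes with the most similar levels to each member, by mean CPM over the 2 libraries and with no correction for length, were these. Next to Mir29a (rank 148) stood Mir540 at 257.2 ± 56.6, Mir700 at 254.8 ± 51.9, Mir542 at 240.4 ± 24.5 and Mir1306 at 234.3 ± 7.39 CPM (SD, n = 2 each). The range of Mir29a overlapped that of each of these except Mir1306. Next to Mir29c (rank 188) stood Mir670 at 123.8 ± 4.98, Mir222 at 123.5 ± 5.01, Mir30b at 115.9 ± 13.6 and Mir181a-2 at 112.8 ± 7.87 CPM, and all but Mir181a-2 overlapped its range. Mir29b-2 had the same counts as Mir3076 (rank 343) and stood beside Mir764, Mir3062 and Mir6958, which lay between 4.09 and 4.20 CPM. Mir29b-1 (rank 387) stood among Mir6971, Mir194-1, Mir5131 and Mir653, between 2.14 and 2.30 CPM, and its range overlapped each of theirs. Of the 16 neighbours, none but Mir1306 and Mir181a-2 had a range apart from that of its member.

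The 2 libraries were compared gene by gene with an exact binomial test, two-sided. Library totals carried TMM factors (trimmed mean of M values), and p-values were adjusted by Benjamini-Hochberg over the 466 genes that reached 10 counts in sum. The test compares these libraries, not conditions, and takes reads as independent. It called 213 genes, or 45.7% of those tested, at an adjusted p under 0.05. Of these, 110 genes (23.6% of those tested) were higher and 103 (22.1%) lower in replicate 1. With unscaled totals every log2 ratio shifted up by 0.12, and the split became 155 higher and 67 lower.

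Of the 4 Mir29 genes, 1 was called. Mir29a was lower in replicate 1, with a log2 ratio of -0.17 (95% interval -0.29 to -0.05) and the exact binomial test gave an adjusted p of 0.0149. With unscaled totals its ratio was -0.05 and its adjusted p 0.595, so the call rests on the scaling. A share of 1 in 4 is below the 45.7% called among all genes, and with so few members nothing is read from it.

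Mir29b-1 showed the widest ratio of the family and was not called. Its log2 ratio was -1.46 (95% interval -3.20 to -0.02), from 6 and 13 counts, and the adjusted p in the exact binomial test was 0.0726. Mir29c had a ratio of -0.01 (-0.18 to 0.16) and Mir29b-2 of -0.11 (-1.09 to 0.92), with adjusted p-values of 0.953 and 0.951. All 4 ratios were negative with TMM, at a median of -0.14 against 0.02 over all genes tested. With unscaled totals those of Mir29c and Mir29b-2 became 0.11 and 0.01, which follows from the common shift of every ratio, and no direction of the family is read from these signs.

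**Figure D4:**
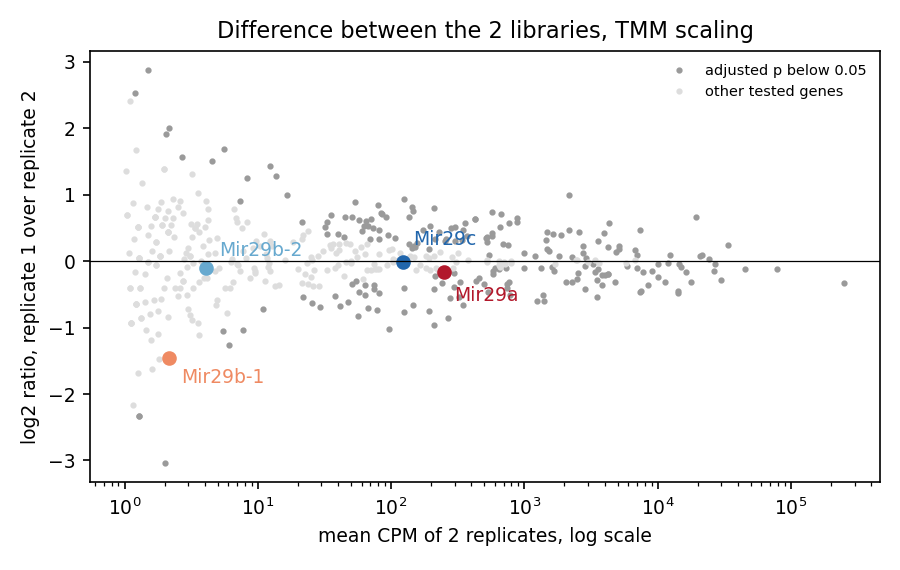
Each point is 1 of the 466 tested genes, with its mean CPM on a log scale against the log2 ratio of replicate 1 over replicate 2 under TMM scaling. Dark grey marks genes called by the exact binomial test. Mir29a at -0.17 and Mir29c at -0.01 lie near 0, while Mir29b-1 lies at -1.46 among genes of low counts that scatter widely.

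Beside other miRNAs that mark brain maturation, the uniquely placed Mir29 reads lay within a broad range. All 15 genes of that list had counts, from 15.8 CPM per kilobase for Mir124a-3 to 169146 for Mir137, a regulator of neuronal maturation, with a median of 1508. Mir29a lay below 7 of them, and Mir29c above 7 of them. The Mir124a, Mir128, Mir138, Mir218 and Mir219a genes of this list belong to families with several precursors. Reads that map to several loci are not in their counts. The range, the median and these places therefore compare uniquely placed reads, not levels of mature forms. Mir338, a miRNA of the oligodendrocyte lineage, stood at 2949 ± 24.2 CPM per kilobase, Mir219a-1 of the same lineage at 1508 ± 45.3, and neuronal Mir132 at 11501 ± 2024 (SD, n = 2 each). Lower in the same list stood Mir219a-2 at 303.2 ± 83.0 and Mir212 at 485.6 ± 114.9 CPM per kilobase (SD, n = 2 each), both below Mir29c. The level of Mir29a lay between Mir338 and Mir219a-1, apart from each by more than either SD.

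Markers of dividing progenitors reached further up than the Mir29 genes. Of the 11 genes of this list, 5 were above Mir29a, led by Mir17 at 321698 ± 12528 CPM per kilobase (SD, n = 2), and 6 were below Mir29c. Those below were Mir19a at 607.2, Mir19b-1 at 142.3 and the Mir302 genes at 108.0 to 1222 CPM per kilobase. Mir19b-1 shares a mature form with another gene, so its uniquely placed reads give no level for that form. Mir302a, Mir302b, Mir302c and Mir302d form a pluripotency cluster, so their levels are not read as those of forebrain progenitors.

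Markers of other cell types were present beside them. Endothelial Mir126a stood at 243905 ± 23135 CPM per kilobase, and Mir143 of the vessel wall at 67329 ± 2585 (SD, n = 2 each). In the mesenchyme and vessel wall list, all 6 genes had a count in at least 1 library, and the summed level was 4402 CPM in replicate 1 and 4798 CPM in replicate 2. Mir143 alone gave 4127 and 4357 CPM of these sums, and 4 of the 6 genes lay below Mir29c per kilobase. Of 5 genes tested, the exact binomial test called 4 lower in replicate 1, against 22.1% of all genes tested. The microglia and blood list summed to 473 and 462 CPM over 6 genes, with Mir142b at 0, and Mir142 was not analysed here. These near-equal sums cover opposite differences between replicates 1 and 2. Mir451a had 238.5 and 152.5 CPM, while Mir223 had 96.6 and 151.25 and Mir144 had 42.7 and 70.0. The muscle list summed to 18.8 and 25.2 CPM, all from Mir206, with Mir1a-1, Mir133a-1 and Mir133a-2 at 0, and Mir1a-2 was not analysed here. The Mir1a and Mir133a families have several precursors, so a count of 0 in uniquely placed reads does not show that their mature forms were absent. The liver list of Mir122 and Mir192 summed to 175.9 and 142.6 CPM. What share of the Mir29 reads came from which cell type was not tested. The neural markers Mir137, Mir128-1 and Mir9-3 were present in both libraries. Mir9-2 stood at 3.62 CPM and the 3 genes of the Mir124a family at 1.07 to 4.27 CPM. The Mir9 and Mir124a families have several precursors, and reads that map to several loci are not in these counts. These values therefore give no level for mature miR-9 or miR-124.

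Mir29b-1 and Mir29b-2 can be set beside a chosen list of other genes whose families have several precursors. Of the 10 genes of this list with a row, the lowest was Mir9-2 at 50.2 ± 14.4 CPM per kilobase, next to Mir29b-2 at 50.9 ± 0.544 (SD, n = 2 each), and none of the 10 lay below Mir29b-1. Outside this list, Mir124a-2 at 16.3 ± 5.07 and Mir124a-3 at 15.8 ± 2.33 CPM per kilobase, also of a family with several precursors, had lower means than Mir29b-1. Mir26a-1 stood at 69.6 ± 4.01 and Mir30c-2 at 489.6 ± 133.5, while Mir181a-1 reached 79930 ± 441.8. Of the 10 genes, 4 were above Mir29a.

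**Figure D5:**
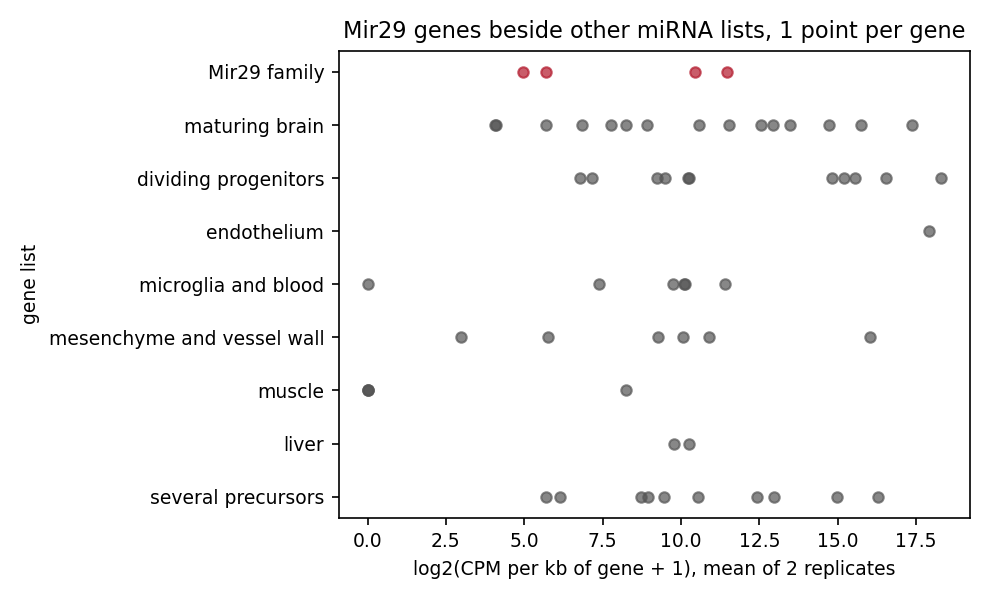
Each point is 1 gene, placed by log2 of the mean CPM per kilobase plus 1, with the Mir29 genes in red on the top row and the lists of other miRNAs in grey below. The 4 Mir29 genes fall as a high pair, Mir29c and Mir29a, and a low pair, Mir29b-1 and Mir29b-2.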

How the data were processed

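The authors deposited raw read counts per gene for each library, without strand, on the gene strand and on the opposite strand. Reads were placed on mm10 with the GENCODE M4 annotation, per the deposited file descriptions. The aligner, counter and trimming were not given in the sources used here. Gene-strand counts were used, and rows of unassigned reads (40.5% of reads at several loci and 19.1% unmapped in replicate 1, 43.3% and 15.2% in replicate 2) stayed out of totals. Symbols and positions came from GENCODE M21 for 1894 of 1973 genes, sequences from RefSeq. Scaling used TMM in edgeR 4.0.16 (R 4.3.3), and DESeq2 1.42.0 size factors as an alternative. Exact tests ran on the raw counts in SciPy 1.17.1, while log2 ratios had 0.5 added to each count. The tests were also run on simulated data with set changes and counting noise only, without TMM factors. That check does not cover further spread between pools. With 1 group, no quasi-likelihood fit was made. Genes named are the members, the 2 nearest in CPM on each side, and up to 3 genes per marker list, with further list genes named after their values were seen. Members and lists were chosen with earlier results of these data known. The labels number both pools as biological replicates with separate biosample records. Alternatives were the scaling, column, denominator, count filter, length correction and leaving out a replicate. Intervals cover counting error only: reads without molecular identifiers are not independent molecules.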

Additional observations from a re-analysis of the deposited data

How the results depend on the processing

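With all reads of a table as the denominator, unassigned ones included, mean levels were 93.6 CPM for Mir29a, 46.2 for Mir29c, 1.55 for Mir29b-2 and 142.2 for the 4 genes together. With the unstranded column, Mir29b-2 stood at 4.04 CPM and the family at 371.7, moves larger than the very small SD between replicates. Leaving out 1 replicate at a time gave 245 to 253.2 CPM for Mir29a, 118.5 to 127.7 for Mir29c, 4.09 to 4.15 for Mir29b-2 and 1.19 to 3.13 for Mir29b-1, the last resting on few counts. Per base of gene, Mir29b-2 held 3.51% of its locus. With unscaled totals, 67 genes were called lower in replicate 1, the log2 ratio of Mir29a was -0.05 (adjusted p = 0.595 by the exact binomial test; 0.00802 to 0.0224 under the other alternatives), and the ratios of Mir29b-2 and Mir29c reversed, to 0.014 and 0.11. That shift is the construction of the scaling. Mir29b-1 was called under no alternative, with adjusted p-values of 0.0712 to 0.117 by the exact binomial test. No paired analysis was possible because both libraries belong to 1 group. Without the other library no test between libraries can be made. Depth limits both b genes, whose counts of 6 to 21 do not resolve their order.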
